A study of Mus musculus with 14 samples.

Results

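Genes whose FPKM was higher at day 10 than at day 4 with Cdk9-DN, and about level with the control vector, numbered 68 of the 26962 genes listed in any library. They were drawn from RNA sequencing of mouse embryonic fibroblasts undergoing reprogramming towards pluripotent stem cells. FPKM, the fragments on a gene scaled by transcript length and sequencing depth, is the unit of all levels. The rule took group means of log2(FPKM + 1). It kept genes with a day 10 minus day 4 difference of at least 0.7 with Cdk9-DN, a difference within 0.3 of 0 with the control vector, and a mean of at least 5 FPKM with Cdk9-DN at day 10. Names of several gene families, such as Hox, Slc, Zfp and ribosomal protein names, were left out by the rule. The members were thus selected on their FPKM of days 4 and 10 in both arms, and those values are given as a description with no test.

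The cells were fibroblasts of OG2/129SV embryos transduced with Oct4, Sox2, Klf4 and c-Myc, all of which both arms received, together with Cdk9-DN or a control vector, and were grown in embryonic stem cell medium with LIF. Each arm had 1 library at day 3 after infection and 2 libraries each at days 4, 5 and 10, 14 in all. The labels do not say whether the 2 libraries of a group came from separate cultures, so the p-values reflect only how far libraries of a group differ, which may be technical. The libraries held 8.79 to 13.0 M fragments, as derived from the deposited error bounds. Transduced cells were sequenced as a mixture, and whether fewer cells of a type or less RNA per cell lies behind a lower value cannot be told apart. Over the 3 fibroblast matrix genes with a value in every library, the summed FPKM was 14.9 to 16.6 with Cdk9-DN and 4.50 to 5.30 with the control vector at day 10. Over 12 pluripotency genes it was 32.7 to 33.6 with Cdk9-DN and 53.2 to 61.0 with the control vector at day 10. The part of such shifts in cell makeup in the values below was not tested. The construct's own transcript was not analysed here.

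Cdk9 is the kinase of the positive transcription elongation factor. It phosphorylates paused RNA polymerase II and the factors that hold it, and so lets transcription proceed into the gene body. During reprogramming, fibroblasts lose their matrix and contractile program and gain epithelial and then pluripotency genes. Spliceosomal small nuclear RNAs, many copies of which are among the members, are short: U1, U4 and U5 are made by RNA polymerase II, whereas U6 and U6atac are made by RNA polymerase III, as is the ribosomal 5S RNA.

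The 68 members fell into 2 classes that differed by what lay behind their values. Protein-coding genes made up 14 of them. The other 54 were short non-coding RNA genes with loci of 60 to 150 bases in the deposited mm9 coordinates. Under their deposited names, 13 of the 54 were copies of U6, 2 of U5, 2 of U6atac, 1 of U1 and 1 of U4. There were also 3 copies of 5S_rRNA, and 1 each of n-R5s69, SCARNA3, SCARNA17 and snoU13. The last 28 carried only a clone name. A later annotation, GENCODE M21, listed 32 of the 54, of which 14 were snRNA, 12 miRNA, 4 rRNA and 2 scaRNA genes.

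The number of sequenced fragments behind each FPKM follows from the deposited bounds, if those bounds reflect counting error alone, which was not tested. Every short member rested on at most 3 implied fragments in each library of days 4 and 10. Each coding member reached at least 84.9 implied fragments in one of them, and Tmem64 reached 2829. The label of a gene set that responds only to Cdk9-DN thus rests on counts for at most 14 genes, or 13 without AI316807, whose other libraries are listed at 0. For the 54 short members the label holds only as the arithmetic of the rule.

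**Figure D1:**
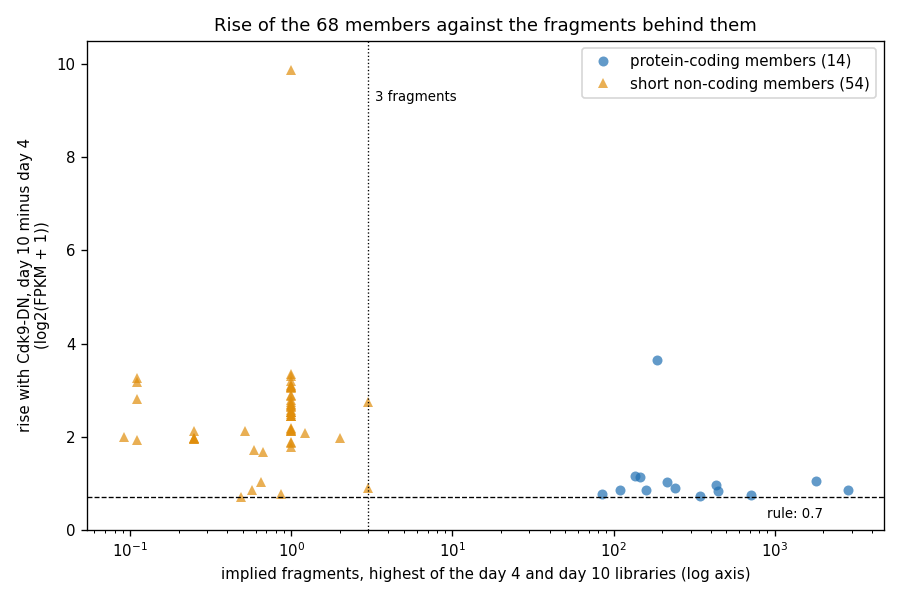
Day 10 minus day 4 difference with Cdk9-DN on the log2(FPKM + 1) scale, against the highest number of implied fragments in a day 4 or day 10 library (log axis), 1 point per member. The 54 short non-coding members lie at or left of 3 fragments and hold most of the largest differences, while the 14 protein-coding members lie between 84.9 and 2829 fragments.

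AL807811.1, annotated as a miRNA gene, had the largest day 10 minus day 4 difference of all members, 9.87 on the log2 scale, and its whole transcript is 60 bases. Its sequence, from GENCODE M21 on GRCm38, is shown because its length carries the point about fragment number.
AL807811.1, chr4:139338206-139338265, plus strand: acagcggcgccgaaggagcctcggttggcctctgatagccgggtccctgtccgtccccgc

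AL807811.1 had 944 and 923 FPKM in the Cdk9-DN libraries of day 10, against 0 in both control libraries of that day. Each of those values stood for 1 implied fragment. It was at 0 in all libraries of days 3 and 4, and at day 5 it had 1164 and 0 FPKM with Cdk9-DN, again from 1 fragment, against 0 in both control libraries. One fragment on this locus was thus worth more FPKM than the highest value of any coding member.

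Among the U6 copies, 3 of equal length had 28.9 and 0 FPKM with Cdk9-DN at day 10, each from 1 and 0 fragments. Of these 3, 1 copy also had 32.1 and 0 FPKM with the control vector at day 10, and the others were at 0 there. A further 2 copies had 13.9 and 0 FPKM in the same libraries, from 0.25 and 0 fragments, an implied number below 1. Near-identical copies can share reads, so the locus a value belongs to is uncertain. All 13 U6 members were above 0 in only 1 of the 2 Cdk9-DN libraries of day 10.

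A total of 5 pairs of short members had identical FPKM in every library. In 1 of these pairs a U6 copy was matched with snoU13, and in another n-R5s69 was matched with U4, although the RNAs are unrelated in name. The loci of the first of these pairs are both 104 bases long, and those of the second both 119. Each gene had 1 implied fragment, in the same Cdk9-DN library of day 10 as its match. Equal length and fragment number give equal FPKM.

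Across the 54 short members, 41 were at 0 in 1 of the 2 Cdk9-DN libraries of day 10 and 13 were above 0 in both. A total of 39 were above 0 in a single Cdk9-DN library of day 10 and at 0 in every day 4 and control day 10 library that listed them. For 33 of the 54, no library outside Cdk9-DN day 10 gave a value above 0. Only 4 had over 1 fragment in a Cdk9-DN library of day 10. These were U6atac (3 fragments), U1 (1.99), AC138200.1 (1.22) and AC084162.1 (1.56). In the control libraries of day 10, U6atac had 3 and 1 fragments and AC084162.1 had 1 and 1.56. U1 had 0 in both, and AC138200.1 had 0.02 and 0.37.

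The libraries that the rule did not use showed how often short members are seen at all. At day 5, 14 and 12 of the 54 short members were above 0 with Cdk9-DN, against 13 and 12 with the control vector. At day 3 the counts were 14 with Cdk9-DN and 10 with the control vector. The Cdk9-DN libraries of day 10 stood at 38 and 29, which the rule itself selects, against 14 and 13 with the control vector. At day 5, the only day outside the rule with 2 libraries per arm, the counts of the arms thus overlapped.

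**Figure D2:**
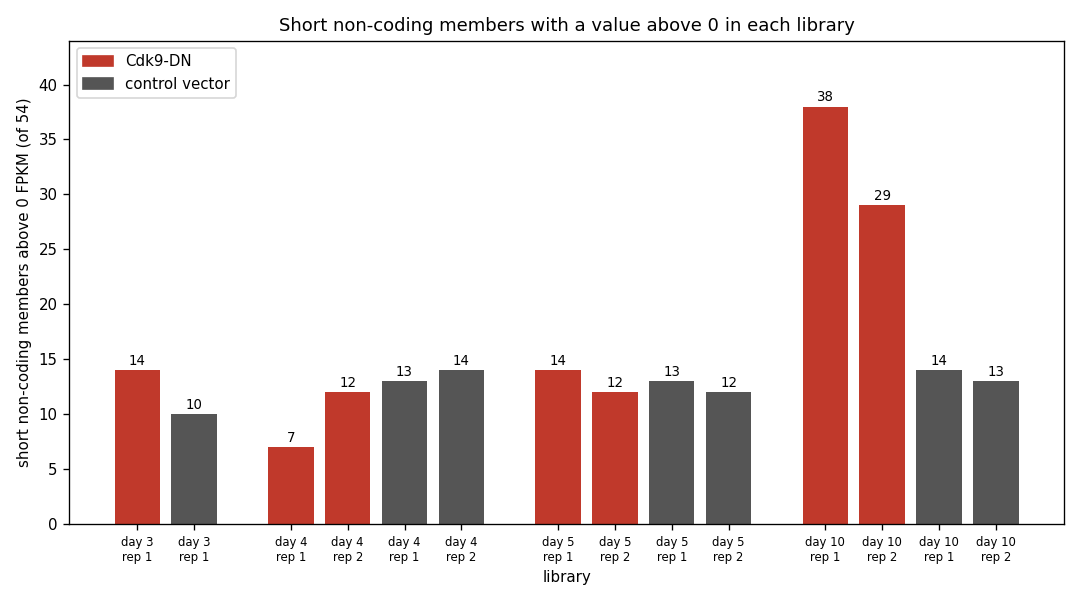
Number of the 54 short non-coding members above 0 FPKM in each library, with Cdk9-DN in red and the control vector in grey. The Cdk9-DN libraries of day 10 hold 38 and 29, which the choice of members fixes, and all other libraries hold 7 to 14.

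Ranking members by size put the short RNAs first. The 10 largest day 10 minus day 4 differences with Cdk9-DN belonged to AL807811.1 (9.87), the coding gene AI316807 (3.64, against day 4 libraries listed at 0, which can be failed estimates), AC105169.1 (3.34), AC122218.1 (3.29), AL645484.1 (3.25), AC107756.1 (3.21), AL662835.1 (3.18), AC124406.1 (3.12), AC129021.1 (3.10) and U5 (3.08). The 2 U5 copies tied. By FPKM with Cdk9-DN at day 10, the 6 highest members were AL807811.1 with a mean of 933, AC084162.1 with 272, AC138200.1 with 120, AL662925.1 with 69.6, and AC119886.1 and AC159323.1 with 52.1 each. AC084162.1 had 343 and 201 FPKM with Cdk9-DN at day 10, against 153 and 364 FPKM with the control vector. Its groups overlapped at that day. With the control vector, the day 10 means were 0 for AL807811.1, 39.8 for AC138200.1, 77.2 for AL662925.1, 111 for AC119886.1 and 117 for AC159323.1. AL662925.1, AC119886.1 and AC159323.1 thus had lower means with Cdk9-DN than with the control vector at day 10.

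One clone-named member could be tied to a mature miRNA. AC163731.1 carries the identifier of Mir5709, and it had 68.1 and 0 FPKM with Cdk9-DN at day 10, from 1 and 0 fragments, against 0 in both control libraries. The mature sequences of RefSeq (GRCm38.p6) follow, with the seed, bases 2 to 8, in capitals.
mmu-miR-5709-5p: aUACGCACacuuaagacuuuag
mmu-miR-5709-3p: aAAGUCUUaaggguguguauug
The 2 arms have different seeds. The library protocol in the labels names no selection of small RNA, and 1 fragment on this locus says nothing of the mature forms.

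The coding members carry the counts. Their identities cover separate functions: lipid handling (Fabp7, Hsd17b11), mitochondrial and lysosomal enzymes (Hpdl, Arsb), glycosylation (C85492), a placental hormone (Prl8a1), nuclear proteins (Eid2, Mblac1) and signalling or membrane proteins (Sbk1, Plek2, Tmem64, Nipsnap3b). D10Wsu102e and AI316807 are given without a role. Of the 14, 11 were listed in both Cdk9-DN libraries of day 10 and 6 in all 14 libraries. A gene that a library does not list has no value there.

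The promoters of 4 of them are printed as the coding members with the largest day 10 minus day 4 differences among those listed in all 14 libraries. The RefSeq table (GRCm38.p6) holds 11 of the 14 coding members, each with 250 bases before and 50 after the start. Capitals mark any match, on either strand, to the 10 motifs named after the sequences.
Fabp7 promoter, chr10:57784673-57784972, plus strand: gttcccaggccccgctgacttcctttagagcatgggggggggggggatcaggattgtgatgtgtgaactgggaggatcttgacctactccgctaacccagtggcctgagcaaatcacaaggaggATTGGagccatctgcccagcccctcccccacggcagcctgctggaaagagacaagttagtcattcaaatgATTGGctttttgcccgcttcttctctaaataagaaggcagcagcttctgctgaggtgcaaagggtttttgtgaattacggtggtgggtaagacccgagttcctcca
Hpdl promoter, chr4:116821459-116821758, minus strand: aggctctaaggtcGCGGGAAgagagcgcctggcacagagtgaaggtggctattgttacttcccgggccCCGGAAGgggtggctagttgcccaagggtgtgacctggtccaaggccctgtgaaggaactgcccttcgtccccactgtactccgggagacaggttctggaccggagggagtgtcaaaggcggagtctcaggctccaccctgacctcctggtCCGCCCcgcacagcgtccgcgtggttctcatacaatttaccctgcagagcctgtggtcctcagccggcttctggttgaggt
Prl8a1 promoter, chr13:27582122-27582421, minus strand: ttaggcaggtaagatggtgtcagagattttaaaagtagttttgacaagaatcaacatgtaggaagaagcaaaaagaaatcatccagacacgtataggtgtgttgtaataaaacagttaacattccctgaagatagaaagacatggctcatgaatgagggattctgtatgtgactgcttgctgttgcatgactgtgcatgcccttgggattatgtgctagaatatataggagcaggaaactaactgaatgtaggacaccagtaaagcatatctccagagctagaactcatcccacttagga
Eid2 promoter, chr7:28267631-28267930, plus strand: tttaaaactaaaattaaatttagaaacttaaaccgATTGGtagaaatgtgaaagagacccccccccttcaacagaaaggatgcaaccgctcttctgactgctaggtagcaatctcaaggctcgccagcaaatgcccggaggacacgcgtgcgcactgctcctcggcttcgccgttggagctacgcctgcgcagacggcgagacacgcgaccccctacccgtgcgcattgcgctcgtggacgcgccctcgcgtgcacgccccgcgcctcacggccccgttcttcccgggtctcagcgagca

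Each motif was searched on both strands in the 11 member promoters and in all 32851 promoters of the table, and no matches to different motifs overlapped in a member promoter. The CCAAT box was searched as its name is spelled, and was found in 6 of 11 member promoters (54.5%) and in 37.4% of all. The GC box, searched as GGGCGG, was likewise found in 6 of 11 (54.5%), against 35.7% of all. The ETS type motif, searched as CCGGAAG, was found in 2 of 11 (18.2%), against 8.86% of all. The E-box of Myc type, searched as CACGTG, was found in 1 of 11 (9.09%), against 7.15% of all. The E2F type motif, searched as GCGGGAA, was found in 1 of 11 (9.09%), against 4.60% of all. The NF-kB type motif, searched as GGGACTT, was found in 1 of 11 (9.09%), against 5.44% of all. A TATA box, searched as TATAAA, was found in 0 of 11, against 13.6% of all. An AP-1 site, searched as TGANTCA, was found in 0 of 11, against 7.81% of all. A cAMP response type site, searched as TGACGTC, was found in 0 of 11, against 3.21% of all. The octamer core, searched as ATGCAAA, was found in 0 of 11, against 4.63% of all. The promoters shown of Fabp7 and Eid2 hold the CCAAT box, that of Hpdl the GC box, E2F type and ETS type motifs, and that of Prl8a1 none of the 10. GC content ranged from 39.7% (Prl8a1) to 68.7% (Plek2), with a median of 59.0% against 52.7% over all promoters. These matches are a description of letters within 300 bases.

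**Figure D3:**
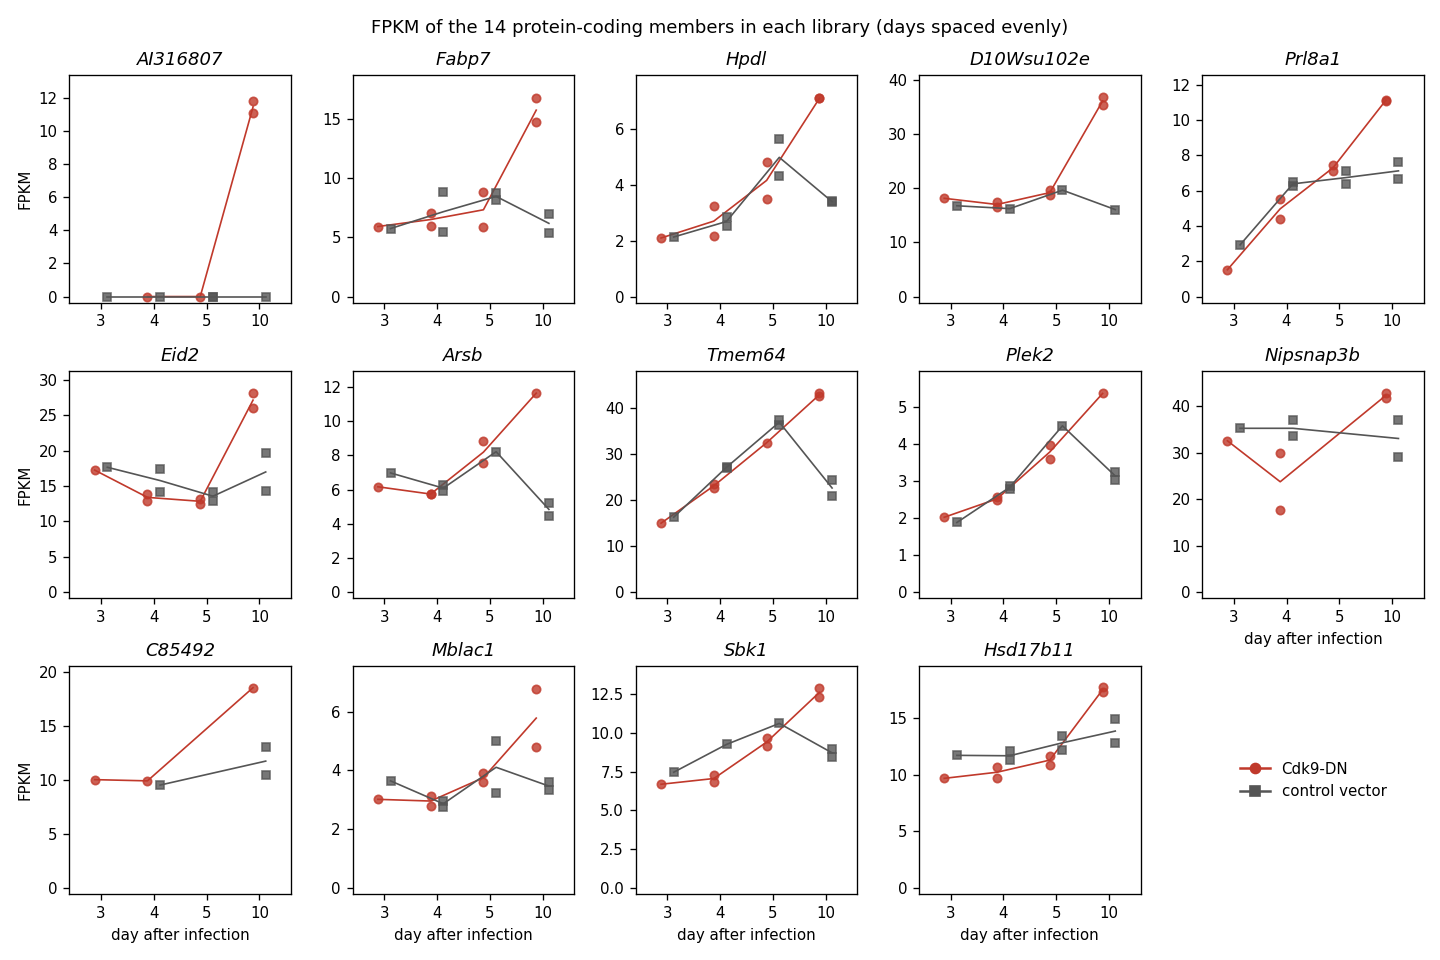
FPKM of each of the 14 protein-coding members (1 panel each) in every library that lists it, by day after infection, with Cdk9-DN as red circles and the control vector as grey squares, and lines through group means. In every panel the Cdk9-DN points of day 10 lie above the control points of that day, in libraries that the rule used. The same order held for 46.1% of all protein-coding genes past the filter, and nothing is read from it. Points are missing where a library does not list the gene.

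Among the genes of lipid handling, Fabp7 showed the largest difference between the arms at day 10. It encodes the brain-type fatty acid binding protein, a marker of radial glia. Fabp7 had 14.7 and 16.8 FPKM with Cdk9-DN at day 10, against 6.96 and 5.41 FPKM with the control vector. At day 4 it had 7.06 and 5.96 FPKM with Cdk9-DN, against 8.88 and 5.47 FPKM with the control vector, and these groups overlapped. Its day 10 values rest on 117 and 135 fragments with Cdk9-DN and on 50.5 and 41.3 with the control vector. Over 18 neural and neuroendocrine genes with a value in every library, the summed FPKM at day 10 was 21.4 to 22.2 with Cdk9-DN and 4.92 to 5.34 with the control vector, and 5 to 8 of the 18 were at 0 in a day 10 library. The part of such cells in the Fabp7 values was not tested. None of the 6 other Fabp genes with values reached 5 FPKM with Cdk9-DN at day 10, and Fabp3 was listed at 0 with Cdk9-DN and averaged 31.4 FPKM with the control vector.

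Hsd17b11, a hydroxysteroid dehydrogenase that sits on lipid droplets, had 17.7 and 17.3 FPKM with Cdk9-DN at day 10, against 14.9 and 12.8 FPKM with the control vector. At day 4 it had 10.7 and 9.74 FPKM with Cdk9-DN, against 12.1 and 11.3 FPKM with the control vector. The order of the arms differed between these days, with no overlap in either. The rule used both days and asks for a shift in this direction, so nothing is read from that order. Of the 13 coding members other than AI316807, Hsd17b11 had the smallest difference between the arms at day 10, 0.32 on the log2 scale. Its day 10 minus day 4 difference of 0.72 with Cdk9-DN was just inside the limit of the rule.

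Hpdl encodes a mitochondrial protein that resembles hydroxyphenylpyruvate dioxygenase. It had 7.12 and 7.11 FPKM with Cdk9-DN at day 10, against 3.43 and 3.38 FPKM with the control vector. At day 5 it had 3.50 and 4.84 FPKM with Cdk9-DN, against 4.33 and 5.66 FPKM with the control vector. At day 4 it had 2.16 and 3.25 FPKM with Cdk9-DN, against 2.52 and 2.87 FPKM with the control vector. Of days 4, 5 and 10, the arms did not overlap at day 10 alone.

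Arsb encodes arylsulfatase B, a lysosomal enzyme that degrades dermatan and chondroitin sulfate. It had 11.6 FPKM in the 1 Cdk9-DN library of day 10 that lists it, against 5.23 and 4.46 FPKM with the control vector. At day 5 it had 7.55 and 8.82 FPKM with Cdk9-DN, against 8.21 FPKM in the 1 listed control library. Gm17447, listed in the deposited tables within the same locus, had a day 10 minus day 4 difference of 1.19 with Cdk9-DN and 0.22 with the control vector. How reads of overlapping genes were divided is not given in the sources used here, so the value of Arsb is uncertain to that extent.

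C85492, the gene now named Pomgnt2, encodes a glycosyltransferase acting on alpha-dystroglycan. It was listed in 6 of the 14 libraries and in none of day 5. It had 18.6 FPKM in 1 Cdk9-DN library of day 10, against 13.1 and 10.4 FPKM with the control vector.

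Prl8a1 belongs to the prolactin family that the rodent placenta expresses. It had 11.1 and 11.2 FPKM with Cdk9-DN at day 10, against 7.60 and 6.65 FPKM with the control vector. At day 3 it had 1.52 FPKM with Cdk9-DN and 2.93 FPKM with the control vector, from 28.6 and 51.0 fragments. At day 4 it had 4.40 and 5.55 FPKM with Cdk9-DN, against 6.50 and 6.27 FPKM with the control vector. The Cdk9-DN values were below those of the control vector at days 3 and 4 and above them at days 5 and 10. None of the 23 other Prl genes with values reached 5 FPKM with Cdk9-DN at day 10.

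Eid2 encodes a nuclear inhibitor of differentiation that binds the acetyltransferase EP300. It had 28.2 and 26.1 FPKM with Cdk9-DN at day 10, against 14.3 and 19.7 FPKM with the control vector. At day 5 it had 13.2 and 12.5 FPKM with Cdk9-DN, against 12.9 and 14.2 FPKM with the control vector. The higher Cdk9-DN values thus came after day 5. Its neighbour and relative Eid2b lay just outside the rule, with day 10 minus day 4 differences of 0.65 with Cdk9-DN and 0.33 with the control vector.

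Mblac1, whose human protein is an endonuclease that processes histone pre-mRNA, had 6.78 and 4.78 FPKM with Cdk9-DN at day 10, against 3.59 and 3.34 FPKM with the control vector. At day 5 it had 3.59 and 3.91 FPKM with Cdk9-DN, against 3.22 and 4.99 FPKM with the control vector. The lower Cdk9-DN library of day 10 thus lay below the higher control library of day 5. It had the fewest fragments of the coding members, 84.9 and 59.9 in the Cdk9-DN libraries of day 10.

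Tmem64 encodes a transmembrane protein, and had the highest FPKM of the coding members. It had 42.6 and 43.1 FPKM with Cdk9-DN at day 10, against 20.9 and 24.4 FPKM with the control vector. At day 5 it had 32.4 FPKM in the 1 listed Cdk9-DN library, against 37.4 and 36.3 FPKM with the control vector. At day 4 it had 22.6 and 23.5 FPKM with Cdk9-DN, against 27.2 and 27.0 FPKM with the control vector. Control cells were thus higher at day 5 than at either day 4 or day 10, while Cdk9-DN cells were highest at day 10.

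Plek2, a relative of pleckstrin, had 5.38 FPKM in 1 Cdk9-DN library of day 10, against 3.03 and 3.26 FPKM with the control vector. Sbk1, a serine/threonine kinase, had 12.9 and 12.3 FPKM with Cdk9-DN at day 10, against 8.45 and 8.98 FPKM with the control vector. Both had higher control values at day 5, at 4.50 FPKM for Plek2 and 10.6 FPKM for Sbk1 in the 1 control library that lists each, than at day 10.

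Nipsnap3b, of the NIPSNAP family, had 41.7 and 42.8 FPKM with Cdk9-DN at day 10, against 29.0 and 37.0 FPKM with the control vector. At day 4 it had 29.9 and 17.6 FPKM with Cdk9-DN, against 37.0 and 33.5 FPKM with the control vector. The library at 17.6 FPKM rested on 156 fragments and that at 29.9 FPKM on 102, so level and fragment number ran opposite ways. Without that library Nipsnap3b left the rule.

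D10Wsu102e had 35.4 and 36.9 FPKM with Cdk9-DN at day 10, against 16.1 FPKM in the 1 listed control library. At day 5 it had 18.8 and 19.6 FPKM with Cdk9-DN, against 19.7 FPKM in 1 control library. AI316807, named Smim19 in GENCODE M21, had 11.1 and 11.8 FPKM with Cdk9-DN at day 10, from 172 and 186 fragments. In the 7 other libraries that list it, it is listed at 0, which in such tables can be a failed estimate, so its difference of 3.64 is not read as a fold change. Its locus overlaps that of Slc20a2, whose day 10 minus day 4 difference was -0.22 with Cdk9-DN and -0.10 with the control vector.

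The label of a rise only with Cdk9-DN was set on days 4 and 10 and takes no account of day 5. Of the 11 coding members with day 5 values and no value of 0, 10 were higher at day 5 than at day 4 with Cdk9-DN, by a median of 0.37 over the 11. With the control vector 10 of 11 were also higher at day 5 than at day 4, by a median of 0.26, or 9 of 11 after quantile normalization. Hpdl showed the largest control difference, 0.69. From day 5 to day 10 all 11 were higher with Cdk9-DN, by 0.39 to 1.03. With the control vector 8 of the 11 were lower at day 10 than at day 5, or 10 of 11 under median-of-ratios scaling, and the difference reached -0.69 for Tmem64. These differences share libraries with the rule and carry no test. The rule holds the control difference between days 4 and 10 within 0.3. A gene well above that at day 5 in control cells must therefore be lower again at day 10. The same counts over all genes are not given here, so nothing is read from the counts of the 11.

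Day 5 gave the only replicated comparison of the arms whose libraries the rule did not use. Over all genes, limma called 10 of 5902 genes tested (0.169%), 4 of them higher with Cdk9-DN (0.0678%) and 6 lower (0.102%). Of the 68 members, 32 passed the filter of at least 1 FPKM in 2 libraries of days 4, 5 and 10, and 30 of these, 12 coding and 18 short, could be tested. None of the 30 was called by limma, and none had an unadjusted p under 0.05, against 8.39% of all genes tested. The 11 tested coding members other than AI316807 differed by -0.22 to 0.10 on the log2 scale, with a median of -0.16 against -0.02 over all genes tested. Of these 11, 10 were lower with Cdk9-DN, or 9 under median-of-ratios scaling. Prl8a1 was higher, at 7.14 and 7.45 FPKM with Cdk9-DN against 6.36 and 7.13 FPKM with the control vector.

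The lowest adjusted p among the coding members at day 5 belonged to Tmem64, with a difference of -0.18 ± 0.09 (SE) and an adjusted p of 0.66 in limma. Hpdl had the most negative difference, -0.22 ± 0.18 (SE), with an adjusted p of 0.78 in limma. The upper 95% limits of the 11 differences ranged from 0.03 (Tmem64) to 0.37 (Fabp7). All 11 intervals thus exclude a difference of 0.7, the size the rule asks of the day 10 minus day 4 difference. That size refers to days within an arm. Between the arms, the day 10 differences were 0.32 to 1.23 over 13 coding members, in libraries that the rule used. Excluding 0.7 is thus not a comparison of day 5 with day 10. Lower limits reached -0.78 (Fabp7), so for Fabp7 a deficit of up to that size with Cdk9-DN could not be told from none at this depth.

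The order of the libraries carries no test. At day 5, among 12 coding members, all Cdk9-DN libraries were below all control libraries for 5 and above them for 1. The corresponding shares over all protein-coding genes past the filter were 34.3% and 27.0%. Of the 5 members below, D10Wsu102e, Tmem64, Plek2 and Sbk1 had only 1 listed library in an arm at day 5, which makes an overlap less likely, and only Hsd17b11 had 2 in each. At day 10, where the rule acted, all 14 were above, against 46.1% of protein-coding genes. At day 4, also used by the rule, 8 of 14 were below and 2 above, against 31.4% and 26.2%. Nothing is read from the counts of days 4 and 10.

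**Figure D4:**
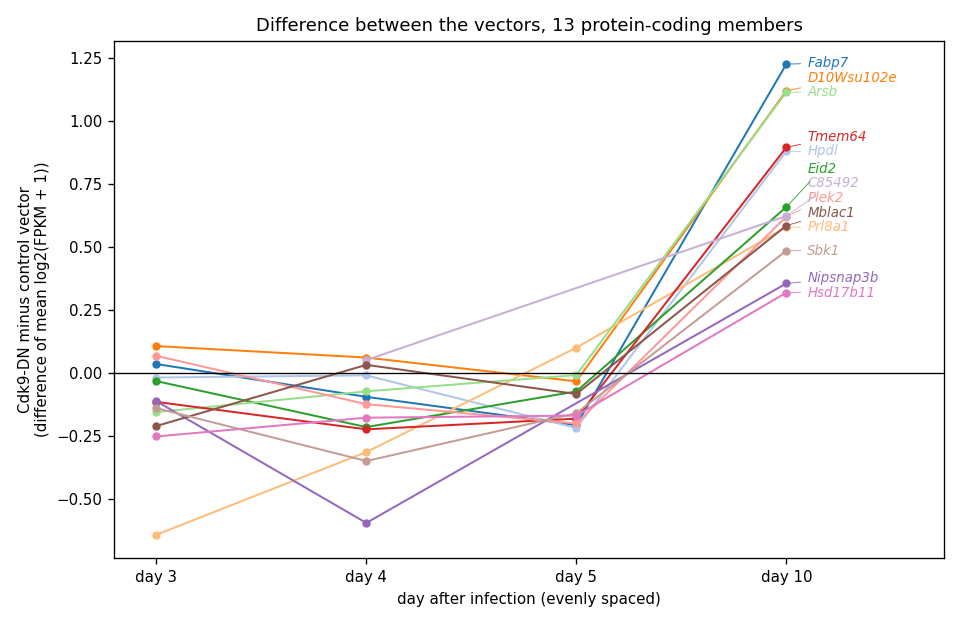
Difference between Cdk9-DN and the control vector in mean log2(FPKM + 1), by day, 1 line for each of the 13 protein-coding members other than AI316807. At day 5 the 11 members with values lie between -0.22 and 0.10. At day 10, in libraries that the rule used, all 13 lie between 0.32 and 1.23. Day 3 has 1 library per arm.

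At day 3, with 1 library per arm and no replicate check, the 12 coding members with values in both differed by -0.64 (Prl8a1) to 0.11 (D10Wsu102e), with 9 lower and 3 higher with Cdk9-DN. The differences at day 10, in libraries that the rule used, were 0.32 to 1.23 over 13 coding members. Their median was 0.62, against 0.05 over all protein-coding genes past the filter. The choice of members favours such a gap, and nothing is read from it.

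The 27 lists drawn up for processes and cell types hold 710 genes, 386 of them listed in any library. They range from pluripotency, epithelial, fibroblast and neural markers to stress, cell cycle, splicing and elongation factor genes. Of these symbols, 0 were members. Members made up only 68 of the 26962 genes listed in any library, so nothing is read from this 0. The lists are not complete, so a member may still belong to one of these processes. Of the 710, 128 had values in all 4 groups of days 4 and 10 and reached 5 FPKM with Cdk9-DN at day 10. Among those 128, 21 had a day 10 minus day 4 difference of at least 0.7 with Cdk9-DN. That count was not compared with the share over all genes at that level, and nothing is read from it. Of these 21, 19 were also higher by over 0.3 with the control vector and 2 were lower by over 0.3. These 21 list genes thus also differed between the days in control cells. Among all genes that met the name, level and Cdk9-DN limits of the rule, the 68 about level in control cells were likewise a minority. Nothing is therefore read from the lack of level genes among the 21. Among 6 elongation and pausing genes that could be evaluated, and 6 of the splicing list, none had a difference of at least 0.7 with Cdk9-DN. Most genes that met the name and level limits of the rule also fell short of that difference. With 6 genes per list, nothing is therefore read from this lack.

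Within 50 kb of the 14 coding members, 9 listed neighbours had values in all 4 groups and reached 5 FPKM with Cdk9-DN at day 10. Of the 9, 2 had a day 10 minus day 4 difference of at least 0.7 with Cdk9-DN: Gm17447, which overlaps Arsb, and BC089491 near Eid2, at 2.27 with Cdk9-DN and 1.19 with the control vector. These neighbours were looked up after the members were known. Their count was not compared with the share over all genes at that level, and nothing is read from it.

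Just inside the limit of 0.7 lay AL772159.1 (0.70), Hsd17b11 (0.72) and Sbk1 (0.76), and just outside it lay Rtn4ip1 (0.69), a U6 copy (0.69) and Pcyt1b (0.68). For the control limit of 0.3, Arsb (0.28) and the 2 U5 copies (0.27) lay just inside, and AC108410.2 (0.34) and AL731851.1 (0.35) just outside. For the level of 5 FPKM, Plek2 (5.38), SCARNA17 (5.47) and Mblac1 (5.78) lay just inside, and another SCARNA17 copy (4.81) and 2 U1 copies (4.60 and 4.50) just outside. Names left out by the rule would have added 45 genes with the same numbers, 4 of them protein-coding and 29 resting on at most 3 fragments.

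The same numbers with the arms exchanged, a difference of at least 0.7 with the control vector and a level course with Cdk9-DN, were met by 105 genes. Of these, 46 were protein-coding and 43 rested on at most 3 fragments. Among protein-coding genes past the filter, 475 had a control difference within 0.3 and at least 5 FPKM with Cdk9-DN at day 10. With Cdk9-DN, 18 of the 475 were higher at day 10 by at least 0.7 and 12 were lower by as much, with a median difference of 0.04. The level limit at day 10 leaves out genes that fell below 5 FPKM with Cdk9-DN. It thus favours higher genes, and the counts of 18 and 12 are not comparable. Genes level in control cells were thus found on both sides with Cdk9-DN.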

How the data were processed

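RNA from 14 libraries was sequenced. Per the submitters' processing notes, CASAVA 1.8.2, TopHat2 2.0.10 and Cufflinks 2.2.1 were used, with builds mm9 and NCBIM37. The deposited values are FPKM with lower and upper bounds, 1 table per library, computed by the authors. Entries sharing an identifier were summed, and 1 failed entry was left out. A gene not listed in a library had no value there. Implied fragments take the upper bound as 2 SD above the FPKM, and libraries held 8.79 to 13.0 M. Such counts cover counting error only.

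Day 5 was tested with limma 3.58.1 (R 4.3.3) on log2(FPKM + 1), which understates changes of low genes. The cell means model covered 6 groups and 12 libraries, with Benjamini-Hochberg adjustment over all genes, two-sided. Tables used Python 3.11.15 and pandas 2.3.3.

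Members and lists were chosen with earlier results of these data known. Named genes were those called at day 5, the 10 largest day 10 minus day 4 differences, the 6 highest levels, list members and those nearest each limit. All 14 coding members were added after their values were seen, as were AC163731.1 and the U6 copies. Sequences of U6 copies and 1 gene just outside a limit are not reported here.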

Additional observations from a re-analysis of the deposited data

Results flagged for a closer look

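The order of the arms was turned round between days 5 and 10 in every listed library for 5 coding members, D10Wsu102e, Tmem64, Plek2, Sbk1 and Hsd17b11. At day 5 all Cdk9-DN libraries lay below for 5 of 12 coding members, against 34.3% of all protein-coding genes past the filter. At day 10 the rule favours the higher Cdk9-DN order, met by all 14 coding members against 46.1%. Nothing is thus read from the count of 5. Hsd17b11 is given here because it alone of the 5 was listed in all libraries of both days. For Hsd17b11, Cdk9-DN minus control was -0.17 on the log2 scale at day 5, with 11.7 and 10.9 FPKM with Cdk9-DN against 12.2 and 13.5 FPKM with the control vector. At day 10 it was 0.32, in libraries that the rule used. The difference between the days was not tested.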

How the results depend on the processing

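The number of members was 68 and ranged from 55 to 74 over 6 settings (another pseudocount, 2 scalings, full listing, a control limit of 0.2, a difference of at least 1), and from 56 to 83 when 1 library was left out. Asking for over 3 implied fragments, an alternative chosen after seeing the data, left 14, all of them coding. Of the 14 coding members, Prl8a1 alone was kept in all 14 alternatives, and Arsb was kept in 5 and C85492 in 6. Median-of-ratios scaling, whose log2 factors were 0.11 to 0.14 at day 10 and -0.07 to -0.02 at day 4, kept 6 of the 14, and quantile normalization kept 9. Under either scaling the 13 coding members other than AI316807 stayed higher at day 10 than at day 4 with Cdk9-DN, by at least 0.54 and 0.64. Leaving out replicate 2 of the control vector at day 4 kept 8 of the 14.

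At day 5 the count of 10 called genes became 24 with no filter and 3 with only genes listed in all 12 libraries, where 12597 and 3491 genes were tested. It ranged from 9 to 19 when 1 library was left out. With the replicate number as a block 6 genes were called, no member among them. Same-numbered libraries showed little shared deviation from their group means (correlations of -0.16 to 0.10). With 2 libraries per group, these values cannot settle whether same-numbered libraries came from a shared culture or batch. The number of members called ranged from 0 to 1 when 1 library was left out, and was 0 in 18 of the 19 alternatives. Without replicate 2 of Cdk9-DN at day 5, 1 member was called, AL807811.1, whose lone remaining library holds 1 fragment and is assumed to vary like the other groups. Adjusted p-values of the 11 coding members ranged from 0.40 to 1 over all settings. For the short members, depth limits any statement, as 3 fragments or fewer lie behind each.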
